A study of Mus musculus with 6 samples.

Results

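Mitochondrial ribosomal proteins were taken as the rows of the deposited count table whose gene symbol begins with Mrpl or Mrps followed by a number. The rule found 76 genes among 23079 rows, 47 Mrpl genes named for the large subunit and 29 Mrps genes named for the small subunit. RNA came from midbrain dopaminergic neurons of C57BL/6 mice aged 4 months that carry Dat bacTRAP, a transgene that places a tagged ribosomal protein in cells with the dopamine transporter. The labels list total RNA and state no ribosome capture step. All animals received adeno-associated virus of serotype 1 that carried EGFP together with a short hairpin RNA. In the control group (3 libraries) the hairpin was scrambled, and in the knockdown group (3 libraries) it was directed against Satb1, a DNA-binding protein that organises chromatin. SNpc and VTA, the regions that hold these neurons, were cut out of 1 mm coronal slices, and the labels assign no library to either region. The labels mention 3 mice for the 6 libraries and tie no library to a mouse. P-values therefore measure the spread between these libraries, which may be technical in part.

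Mitochondria hold their own ribosomes, which translate the few messenger RNAs of the mitochondrial genome into core subunits of the respiratory chain and of the ATP synthase. The ribosomal RNAs come from the mitochondrial genome, whereas every protein of these ribosomes is encoded in the nucleus, made in the cytosol and imported. Some of the proteins descend from bacterial ribosomal proteins and others were added in the mitochondrial lineage. Dopaminergic neurons have long, highly branched axons and depend strongly on respiration.

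The libraries held between 147486754 and 170351145 counts. Satb1 stood at 351, 349.6 and 319.8 CPM in the controls and at 82.9, 166 and 61.2 CPM in the knockdown libraries 1, 2 and 3, and knockdown library 2 held the most of its group. CPM is the usual count scaled to library size, here with TMM factors (trimmed mean of M-values). Satb1 fell by 1.72 on the log2 scale (SE 0.26, adjusted p = 0.00106, edgeR's quasi-likelihood test with Benjamini-Hochberg adjustment). Over 16766 genes tested, 2115 were called lower and 1421 higher at an adjusted p under 0.05, against 972 lower and 2770 higher with scaling by total counts, 1446 and 1969 with upper-quartile scaling, and 1793 and 1923 when genes under a mean of 1 CPM were removed. The summed CPM of 8 dopamine neuron markers was 16932 to 19531 in the controls and 10626 to 13514 in the knockdown libraries, and 6 of the 8 were called lower. The sum of 11 oligodendrocyte markers was 405 to 462 CPM against 630 to 712 CPM, with 9 of 11 called higher. Sums were 52.6 to 56.1 against 45.4 to 53.5 CPM for 11 microglial markers (2 called lower, 2 higher), 265 to 312 against 247 to 252 CPM for 9 astrocyte markers (1 lower, 2 higher), and 4.32 to 5.64 against 4.98 to 7.43 CPM for 8 endothelial markers (0 lower, 1 higher). These sums follow the most abundant gene of each list, at 30.0 CPM in the controls for microglia and 245 CPM for astrocytes. Point values lay above 0 in 9 of 11 microglial (median 1.08), 8 of 9 astrocyte (0.63) and 5 of 8 endothelial markers (0.75). They lay below 0 in 2, 1 and 3. Levels were low, with a median over markers of 0.75, 3.83 and 0.48 CPM in the controls. No marker was at 0 in any library. In bulk samples, fewer cells of a type and less RNA per cell cannot be told apart, and the part of these marker differences in the results that follow was not tested.

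The mitochondrial ribosomal protein genes were lower in the Satb1 knockdown in many members of both subunits, and no member was called higher. Of the 76 members, all of which passed the filter on low counts, 28 were called lower, 15 of 47 Mrpl and 13 of 29 Mrps genes, and 48 did not pass the threshold. Over all genes tested, 12.6% were called lower and 8.48% higher, and among the 9471 genes that averaged 10 CPM or more, a level that every member exceeded, 20.8% were called lower and 9.68% higher. Every gene with the name pattern is a member, but the family itself was selected on the log2 fold changes and calls of this same contrast, so these counts describe the members and carry no test of the set. At an unadjusted p under 0.05, 39 members were lower and 0 higher in the edgeR fit. DESeq2 and limma-voom called 32 and 29 members lower and 0 higher.

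In summed CPM with TMM scaling the 76 members reached 5735, 5368 and 5324 in the controls 1, 2 and 3, and 4657, 4814 and 4399.9 in the knockdown libraries 1, 2 and 3. The groups did not overlap, with means of 5476 ± 226 CPM in the controls and 4623 ± 209 CPM in the knockdown (SD, n = 3), the latter being 84.4% of the former. The median log2 fold change was -0.19 over the Mrpl genes and -0.31 over the Mrps genes, beside 0.01 over all genes tested and -0.08 over those that averaged 10 CPM or more. Values ran from -1.07 for Mrpl34 to 0.22 for Mrpl45. Point values lay below 0 in 62 members, 38 Mrpl and 24 Mrps, and such values were found in 48.8% of all genes tested and in 59.7% of those that averaged 10 CPM or more. All knockdown libraries lay below all controls in 44 members, and all lay above in Mrpl45 and Mrps6. Over all genes tested, the shares without overlap were 20.8% lower and 17.9% higher, and among genes that averaged 10 CPM or more they were 31.9% lower and 17.2% higher.

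The size of the difference depended on the scaling. With total counts the values of all genes moved up by 0.17 at the median, to 0.18, and the medians of the members became -0.02 for Mrpl and -0.14 for Mrps genes. Under that scaling 48 members lay below 0, and 7 were called lower, namely Mrpl34, Mrpl37, Mrpl32, Mrpl44, Mrps7, Mrps18a and Mrps36. All 7 are among the 28. Mrpl45 (0.39), Mrpl48 (0.32) and Mrpl23 (0.31) were then called higher, beside 5.8% of all genes called lower and 16.5% called higher. The summed CPM of the members scaled by total counts was 5475, 5102 and 4925 in controls 1, 2 and 3 and 5079, 5016 and 4612 in knockdown libraries 1, 2 and 3. The groups then overlapped, since knockdown libraries 1 and 2 lay above control 3, and the knockdown mean was 94.9% of the control mean. Under total counts all knockdown libraries lay below all controls in 22 members and above them in 13, beside 16.9% and 31.8% of genes that averaged 10 CPM or more. The CPM values of single genes that follow are scaled by TMM.

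**Figure D1:**
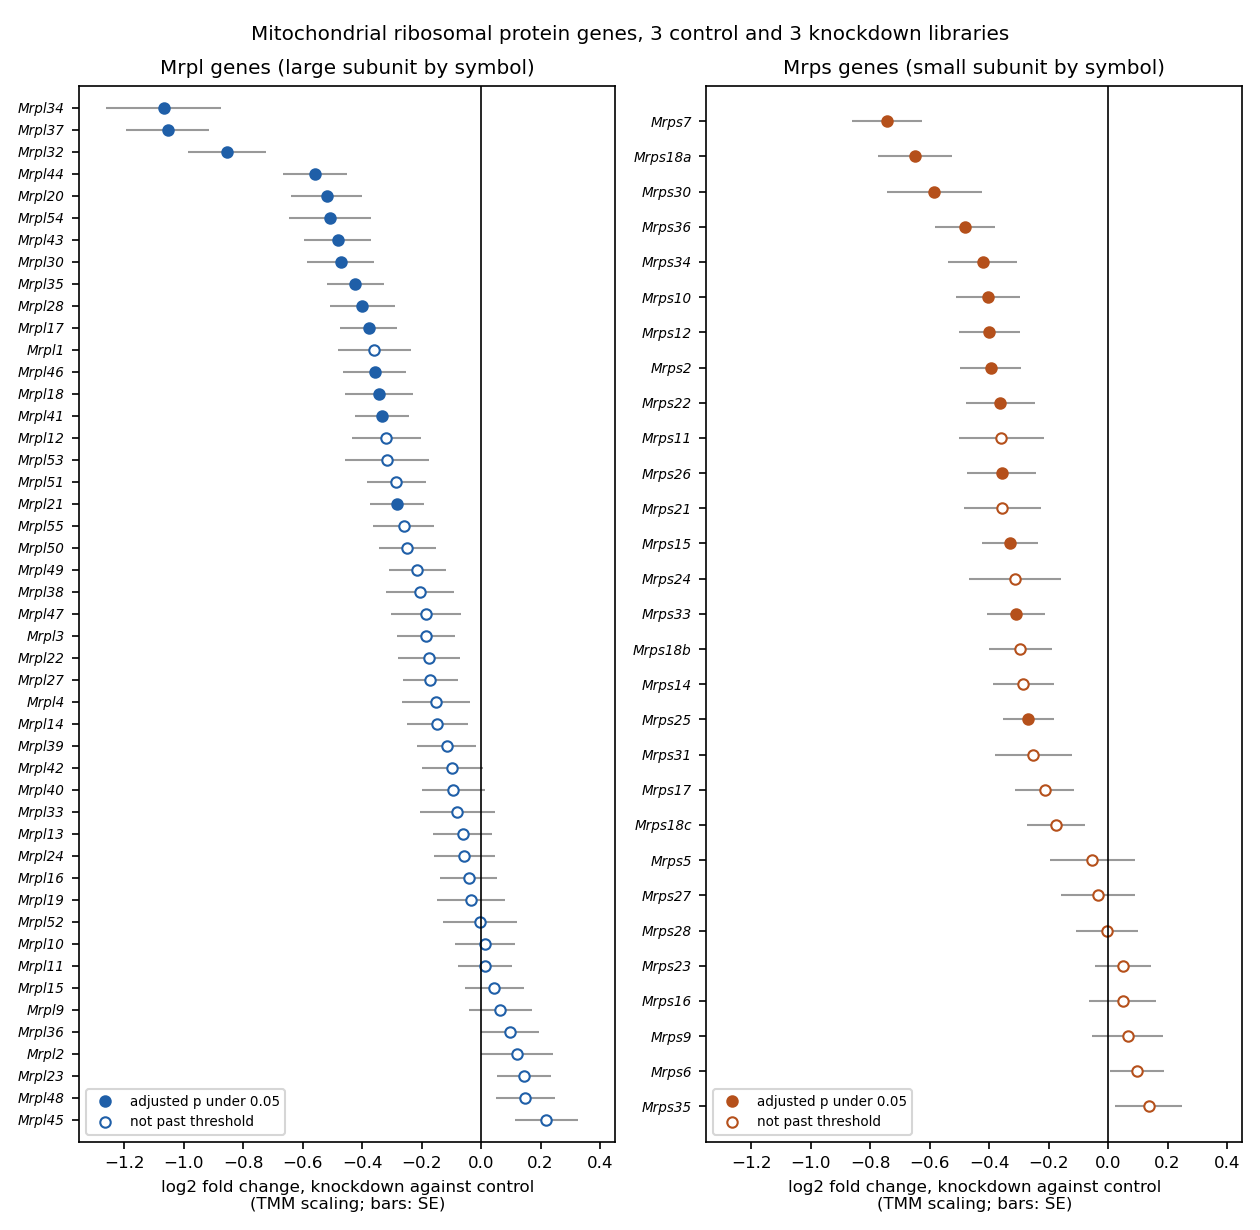
The log2 fold change of knockdown against control with TMM scaling is plotted for each of the 47 Mrpl and 29 Mrps genes, with bars for the SE and filled points for an adjusted p under 0.05. All 28 filled points lie below 0, from -1.07 for Mrpl34 to -0.27 for Mrps25, and with total-count scaling the median over all genes lies higher by 0.17.

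The large-subunit gene with the lowest value was Mrpl34 (chr8:71464959-71465747, plus strand, mm10, 2 exons), whose product is a small relative of bacterial protein L34. It was measured at 59.5, 52.7 and 58.5 CPM in controls 1, 2 and 3 and at 27.5, 36.2 and 17.8 CPM in knockdown libraries 1, 2 and 3. Every knockdown library lay below every control, and knockdown library 3 held the least. Mrpl34 fell by 1.07 on the log2 scale (SE 0.19, adjusted p = 0.00262 in edgeR's test), from 56.9 ± 3.63 to 27.2 ± 9.18 CPM (SD, n = 3), or 47.7% of the control mean.

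Mrpl37 (chr4:107055874-107066868, minus strand, 7 exons) encodes a protein that mitochondrial ribosomes have and bacterial ones lack. It stood at 66.9, 57.2 and 61.2 CPM in the controls and at 28.2, 36.4 and 24.7 CPM in the knockdown libraries, again without overlap and with knockdown library 2 the highest of its group. It fell by 1.05 on the log2 scale (SE 0.14, edgeR adjusted p = 0.000504), to 48.2% of the control mean. Mrpl32 (chr13:14608184-14613165, minus strand) encodes a zinc-binding protein that the m-AAA protease of the inner membrane cleaves before it joins the ribosome. It had 43.5, 40.0 and 39.3 CPM in the controls and 21.4, 26.9 and 19.7 CPM in the knockdown libraries. The groups were well apart, and Mrpl32 fell by 0.85 on the log2 scale (SE 0.13, edgeR adjusted p = 0.001).

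Mrpl44, whose product has a fold like that of ribonuclease III, had 34.0, 38.6 and 36.0 CPM in the controls and 23.9, 25.7 and 24.1 CPM in the knockdown libraries. Its knockdown libraries lay close together (SD 0.989 CPM, n = 3) and below every control, and it fell by 0.56 on the log2 scale (edgeR adjusted p = 0.00364). Its exons overlap those of Wdfy1 on the other strand. Mrpl20, a relative of the bacterial L20 that binds ribosomal RNA early in assembly, had 151, 128 and 124 CPM against 96.2, 105 and 80.1 CPM and fell by 0.52 (edgeR adjusted p = 0.00882). Mrpl54, a protein of mitochondrial ribosomes only, had 32.2, 28.0 and 27.3 CPM against 22.3, 22.5 and 16.8 CPM and fell by 0.51 (edgeR adjusted p = 0.02). The groups did not overlap in either gene. The call of Mrpl54 was lost without control 1 and without knockdown library 3, whereas the calls of the 5 genes above it held whichever library was left out.

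The other Mrpl genes called lower were Mrpl43, Mrpl30, Mrpl35, Mrpl28, Mrpl17, Mrpl46, Mrpl18, Mrpl41 and Mrpl21, with values from -0.48 for Mrpl43 to -0.28 for Mrpl21. Only Mrpl35 among these 9 kept its call whichever library was left out.

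Among the Mrps genes, Mrps7 (chr11:115603925-115608036, plus strand, 5 exons) had the lowest value. Its bacterial relative S7 organises the ribosomal RNA of the small subunit's head. It stood at 72.6, 64.5 and 72.6 CPM in the controls and at 41.8, 47.5 and 36.0 CPM in the knockdown libraries, without overlap. Mrps7 fell by 0.74 on the log2 scale (SE 0.12, edgeR adjusted p = 0.00122), to 59.7% of the control mean. Its exons overlap those of Gga3 and Mif4gd on the other strand, and reads of the 3 genes cannot be told apart if the counting used no strand.

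The next genes carry Mrps symbols although structures of the mammalian ribosome place their products elsewhere. Mrps18a (chr17:46110986-46128910, plus strand), found in the large subunit as mL66, had 120.5, 106 and 117 CPM in the controls and 69.8, 87.5 and 62.1 CPM in the knockdown libraries, and fell by 0.65 (SE 0.12, edgeR adjusted p = 0.00334). Mrps30, found in the large subunit as mL65, had 23.0, 20.8 and 21.5 CPM against 12.7, 18.6 and 12.3 CPM and fell by 0.58 (edgeR adjusted p = 0.0211). Mrps36, whose product is now assigned to the 2-oxoglutarate dehydrogenase complex of the citric acid cycle, had 86.0, 79.1 and 84.3 CPM against 62.4, 62.2 and 54.1 CPM and fell by 0.48 (edgeR adjusted p = 0.00515). All knockdown libraries lay below all controls in these 3 genes. Knockdown library 2 lay closest to the controls for Mrps18a and Mrps30. The call of Mrps30 was lost without control 1, knockdown library 1 or knockdown library 3.

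With Mrps18a and Mrps30 counted in the large subunit and Mrps36 in neither, 17 of 49 large-subunit and 10 of 26 small-subunit members were called lower, with medians of -0.20 and -0.29. The members include 3 relatives of the bacterial protein S18, and of these only Mrps18a passed the threshold, with -0.30 for Mrps18b (edgeR adjusted p = 0.0661) and -0.17 for Mrps18c (edgeR adjusted p = 0.238). The differences between the 3 genes were not tested.

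Mrps34, needed for a stable small subunit, had 60.1, 57.6 and 58.3 CPM in the controls and 48.5, 46.0 and 36.9 CPM in the knockdown libraries, and fell by 0.42 (edgeR adjusted p = 0.0215). Its exons overlap Nme3 on the same strand and Mapk8ip3 on the other. Mrps10, a relative of S10 in the head, had 80.6, 79.5 and 76.2 CPM against 58.9, 67.2 and 52.7 CPM and fell by 0.40 (edgeR adjusted p = 0.0186). Neither gene's groups overlapped. Each call was lost in 4 of the 6 fits without 1 library, for Mrps34 without any control or knockdown library 3 and for Mrps10 without control 1, control 2, knockdown library 1 or knockdown library 3. The other Mrps genes called lower were Mrps12, Mrps2, Mrps22, Mrps26, Mrps15, Mrps33 and Mrps25, from -0.40 for Mrps12 to -0.27 for Mrps25, and each of these 7 lost its call in at least 1 such fit.

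**Figure D2:**
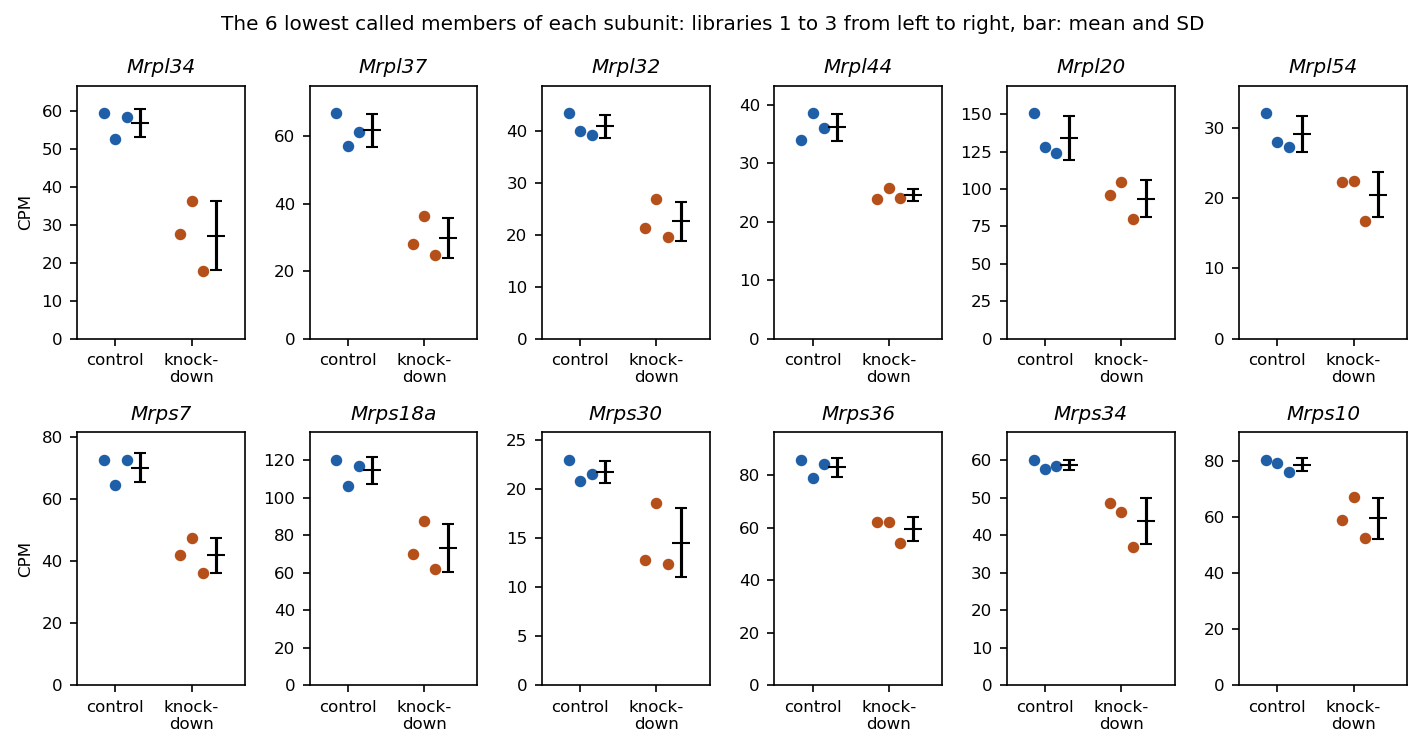
CPM in each of 3 control and 3 knockdown libraries, in library order from left to right, is plotted for the 6 called members with the lowest log2 fold change of each subunit by symbol, with the mean and SD beside the points and axes that start at 0. In all 12 panels the knockdown points lie below the control points.

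Leaving out 1 library moved the number of members called lower from 28 to 11 without control 1, to 15 without control 2, to 21 without control 3, to 12 without knockdown library 1, to 26 without knockdown library 2 and to 14 without knockdown library 3. Such fits have fewer libraries to estimate the spread from, and over all genes the number called lower also went down, to between 1132 and 2054. Calls held in all 6 such fits for 9 members, the Mrpl genes Mrpl34, Mrpl37, Mrpl32, Mrpl44, Mrpl20 and Mrpl35 and the Mrps genes Mrps7, Mrps18a and Mrps36, and 19 lost the call at least once. The medians moved little, between -0.22 and -0.18 for Mrpl and between -0.33 and -0.25 for Mrps genes.

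The libraries differed within each group. The median of the Mrpl genes, as log2 of CPM over the control mean, was 0.05, -0.02 and -0.03 in controls 1, 2 and 3 and -0.21, -0.15 and -0.24 in knockdown libraries 1, 2 and 3. For the Mrps genes these medians were 0.07, -0.06 and -0.02 in the controls and -0.27, -0.23 and -0.36 in the knockdown libraries. Control 1 was thus the highest control and knockdown library 3 the lowest library for both subunits, and the groups did not overlap. With total counts the Mrpl medians were 0.07, -0.01 and -0.05 in the controls and 0.00, -0.01 and -0.09 in the knockdown libraries, so that the groups overlapped, and the Mrps medians were 0.09, -0.05 and -0.05 against -0.06, -0.09 and -0.21, without overlap. With TMM scaling, genes of at least 10 CPM had medians of -0.10, -0.08 and -0.07 in the same knockdown libraries. Knockdown library 2 was the highest of its group in 22 of the 28 members called lower and in 39 of all 76, and it also held the most Satb1. Knockdown library 3 was the lowest in 21 of the 28 and in 41 of the 76, and it held the least Satb1. The summed dopamine neuron markers stood at 10626, 13514 and 12442 CPM in knockdown libraries 1, 2 and 3. The order of the knockdown libraries was not counted over all genes. With 3 libraries no relation to the Satb1 level was tested.

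**Figure D3:**
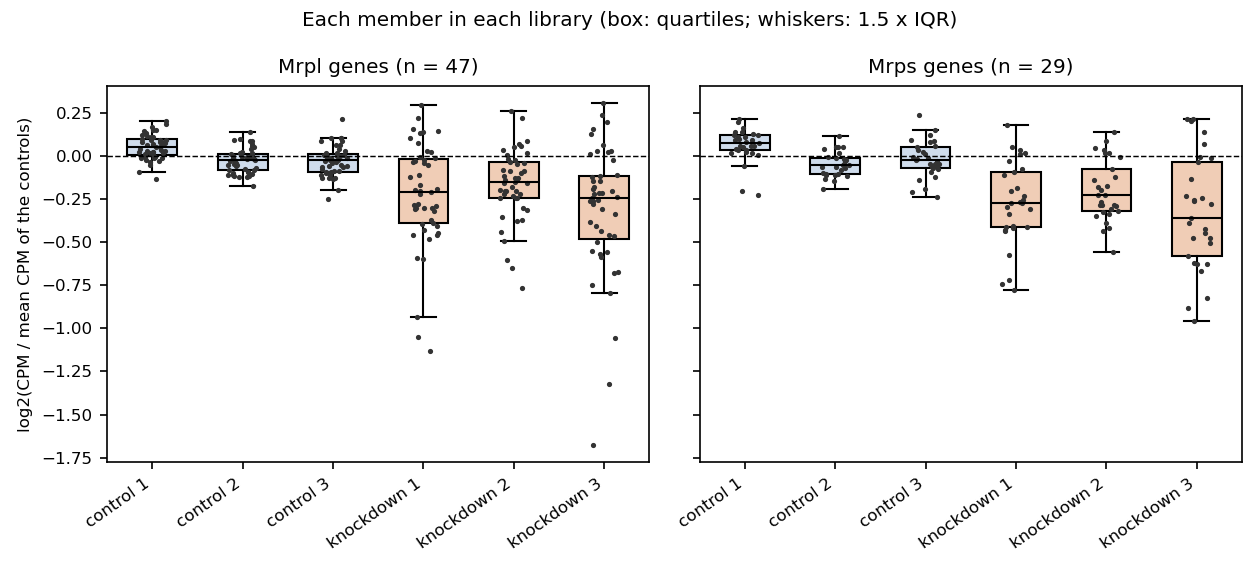
Each point is 1 member in 1 library, as log2 of its CPM (TMM scaling) over the mean CPM of the 3 controls, with boxes for the quartiles, for 47 Mrpl genes (left) and 29 Mrps genes (right). Medians of the knockdown libraries lie between -0.24 and -0.15 for Mrpl and between -0.36 and -0.23 for Mrps genes, below every control median, which for the Mrpl genes does not hold with total counts.

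Sequence around the transcript start of the members is shown because several members moved together. Factors of the ETS family and YY1 are also known to bind promoters of many nuclear genes for mitochondrial proteins. RefSeq promoter windows on GRCm38.p6, from 250 bases before to 50 bases after the start, were found for 67 of the 76 members (73 windows). The searched letters on both strands were CCGGAAG (the core bound by ETS factors such as GABPA), AAGATGGC (YY1), GGGGCGGGG (SP factors) and the palindrome known for NRF1, and no matches to different letters overlapped in a member window. In the lines that follow, capitals mark the match, 5′ to 3′ on the strand named, with up to 8 bases on either side, for the 7 members called lower with the lowest values that hold the ETS or YY1 letters.
Mrpl34 (chr8:71464881-71464903, plus strand, match from base 37 before the start): tacagctcCCGGAAGgccccgcg
Mrps18a (chr17:46110970-46110992, plus strand, match from base 26 before the start): cccctgctCCGGAAGcggaagtg
Mrpl43 (chr19:45006484-45006506, minus strand, match from base 56 before the start): cggtgactCCGGAAGcaaaactc
Mrpl43 (chr19:45006440-45006462, minus strand, match from base 12 before the start): ccccggaaCCGGAAGtcaccggt
Mrpl37 (chr4:107066825-107066848, minus strand, match at base 26 after the start): cacgggcaAAGATGGCggcgtcca
Mrps7 (chr11:115604150-115604173, plus strand, match at base 18 after the start): cagcggccAAGATGGCtgcccccg
Mrps18a (chr17:46111007-46111030, plus strand, match at base 11 after the start): tgcgttccAAGATGGCggccctca
Mrpl35 (chr6:71823746-71823769, minus strand, match at base 23 after the start): caggctgcAAGATGGCggcttcca
Mrpl32 (chr13:14613264-14613287, plus strand, opposite to the gene, match at base 242 before the start): tccgggtaAAGATGGCagagcgcg

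The ETS letters were in 24 of the 73 member windows (32.9%), in 8.86% of all 32851 windows and in 14.4% of windows of tested genes. The YY1 letters were in 12 member windows (16.4%), 2.75% of all windows and 3.62% of those of tested genes. The SP letters were in 15 member windows (20.5%), 11.4% of all and 19.3% of those of tested genes, and the NRF1 palindrome was in 3 (4.11%), 0.971% and 1.67%. The YY1 letters stood on the gene's strand after the start in 8 members, beginning 11 to 36 bases from it. Of these 8, Mrpl35, Mrpl37, Mrps7 and Mrps18a were called lower, and Mrpl42, Mrpl49, Mrps24 and Mrps27 were not. The YY1 letters contain ATG, the letters of a start codon. Whether the matches in these 8 members lie at the start of the coding sequence was not examined. Of the 24 members with the ETS letters 10 were called lower, and of the 43 without them 16. Of the 12 members with the YY1 letters 6 were called lower, and of the 55 without them 20. The median log2 fold change was -0.29 with and -0.26 without the ETS letters, and -0.38 with and -0.26 without the YY1 letters. None of these differences was tested, and a match describes letters only.

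The stretch upstream of Mrpl34, the member with the lowest value, is given in full to the base before the RefSeq start, with the ETS letters in capitals (chr8:71464676-71464925, plus strand, GRCm38.p6).
Mrpl34 upstream: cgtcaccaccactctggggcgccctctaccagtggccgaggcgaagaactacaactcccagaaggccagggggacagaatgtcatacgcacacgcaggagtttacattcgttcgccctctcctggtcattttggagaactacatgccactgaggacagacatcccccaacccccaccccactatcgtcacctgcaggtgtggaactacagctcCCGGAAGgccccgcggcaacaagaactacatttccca

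Genes for 3 of the factors named above were looked up, and those for SP factors were not. Gabpa had 23.0, 22.0 and 26.2 CPM in the controls and 23.2, 19.7 and 24.8 CPM in the knockdown libraries (log2 fold change -0.07, edgeR adjusted p = 0.738). Yy1 had 18.7, 16.9 and 17.2 CPM against 15.04, 15.15 and 17.8 CPM (-0.14, edgeR adjusted p = 0.48), and Nrf1 had 14.9, 11.3 and 16.2 CPM against 14.1, 13.8 and 15.4 CPM (0.03, edgeR adjusted p = 0.916). The groups overlapped in all 3 genes. With total-count scaling the values were 0.10 for Gabpa, 0.03 for Yy1 and 0.20 for Nrf1. Gabpb1 and Gabpb2 had -0.30 and 0.08 with TMM scaling (edgeR adjusted p = 0.155 and 0.787). All of these genes were named after their values were seen. Among 10 regulators of nuclear mitochondrial genes, only Ppargc1a, a coactivator of mitochondrial gene programmes, passed the threshold. It had 72.0, 74.9 and 76.1 CPM against 87.5, 90.7 and 97.3 CPM, rose by 0.30 (edgeR adjusted p = 0.0343), and lost its call whichever library was left out.

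By position in the ribosome, 4 members at the stalks of the large subunit (Mrpl1, Mrpl10, Mrpl11 and Mrpl12) did not pass the threshold. The lists by site need not hold every protein of a site. They are set beside 20.8% called lower among genes that averaged 10 CPM or more. Mrpl12, whose copies recruit the translation factors with GTPase activity, had 111, 94.3 and 103 CPM against 84.2, 93.2 and 69.9 CPM, without overlap (log2 fold change -0.32, edgeR adjusted p = 0.071). Mrpl1 of the opposite stalk had -0.36 (edgeR adjusted p = 0.0578), while Mrpl10 and Mrpl11, which carry the stalk of Mrpl12, both had 0.01. Around the exit tunnel, where the new chain leaves the ribosome, 1 of 6 members (Mrpl17) was called lower, with a range of -0.38 to 0.22. Mrpl45, which lies there and faces the inner membrane, had 27.9, 29.5 and 28.0 CPM in the controls and 31.1, 33.1 and 35.1 CPM in the knockdown libraries. Its knockdown libraries were all higher, but the difference of 0.22 (SE 0.11) did not pass the threshold (edgeR adjusted p = 0.168).

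At the central protuberance, where the subunits meet, 2 of 6 members (Mrpl18 and Mrpl46) were called lower, and Mrpl48 had 0.15. For the small subunit's head, only 5 proteins with a bacterial relative were counted. Of these, Mrps7 and Mrps10 were called lower, Mrps14 and Mrps24 had -0.28 and -0.31, and Mrps9 had 0.07. Mrpl46 and Mrps11 are neighbours on chromosome 7 whose exons overlap on opposite strands, and both had -0.36. Their reads cannot be told apart if the counting used no strand. These sites were chosen with the values known. The shares called lower were 16.7% for the exit tunnel, 33.3% for the central protuberance and 40% for the head. Beside them, 20.8% of genes that averaged 10 CPM or more were called lower, and no site was tested against that share. By descent, 15 of 48 members with a bacterial relative were called lower (31.25%, median -0.20). Of those specific to mitochondria, 12 of 27 were (44.4%, median -0.27), with Mrps36 in neither class. The difference between the classes was not tested.

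Levels of the members within the controls spanned a wide range. Control means lay between 20.7 and 203 CPM for the Mrpl genes and between 19.5 and 230 CPM for the Mrps genes. Levels per kilobase use a single annotated transcript per gene, and their range and order depend on that choice. Per kilobase of transcript, the Mrpl genes lay between 6.16 and 262 CPM with a median of 43.4, and the Mrps genes between 6.23 and 208 CPM with a median of 34.5. Mrpl41, a large-subunit protein without a bacterial relative, was the most abundant, at 267, 259 and 259 CPM per kilobase in controls 1, 2 and 3, and no other member reached its lowest library. Mrps33 followed at 221, 213 and 188 CPM per kilobase and Mrps21 at 218, 173 and 181, and their libraries overlapped. Mrpl20 came next at 198, 168 and 162 CPM per kilobase, overlapping Mrps21. Mrps12, a relative of the bacterial S12 at the decoding centre, stood at 170.3, 142 and 146 CPM per kilobase, and Mrpl23, beside the exit tunnel, at 138, 139.6 and 148, which again overlapped.

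The most abundant members were not alike in the knockdown. Mrpl41 had 207, 201 and 201 CPM in the controls and 164, 172 and 148 CPM in the knockdown libraries, and fell by 0.33 (edgeR adjusted p = 0.0204). Mrps33 had 245, 236 and 208 CPM against 199.8, 185 and 172 CPM and fell by 0.31 (edgeR adjusted p = 0.0401). Mrps12 had 150.4, 125 and 129 CPM against 102, 110.0 and 94.8 CPM and fell by 0.40 (edgeR adjusted p = 0.0163). The groups did not overlap in these 3 genes, but each call was lost in 3 to 5 of the 6 fits without 1 library. For Mrpl41 it held only without knockdown library 2, for Mrps33 only without control 3, and for Mrps12 it was lost without control 1, knockdown library 1 or knockdown library 3. Mrps21 had 106, 84.6 and 88.1 CPM against 81.6, 76.4 and 60.3 CPM, without overlap, and did not pass the threshold (-0.36, edgeR adjusted p = 0.0684). Mrpl23 had 95.7, 96.6 and 102 CPM against 114, 102 and 109 CPM. Its groups overlapped, and its log2 fold change of 0.14 (edgeR adjusted p = 0.298) had the opposite sign.

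The members without a clear difference were numerous. There were 14 members above 0, of which Mrpl45, Mrpl48 and Mrpl23 had the highest values. Mrps6 had 100.1, 98.7 and 100.2 CPM in the controls and 103, 102 and 115 CPM in the knockdown libraries, without overlap and with a log2 fold change of 0.10 (edgeR adjusted p = 0.501). Its exons overlap Slc5a3 on the same strand. Just inside the threshold lay Mrpl18 (-0.34, edgeR adjusted p = 0.0492) and Mrps26 (-0.36, 0.0451), and just outside it Mrpl1 (-0.36, 0.0578) and Mrpl51 (-0.29, 0.0602).

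Across the 76 members, log2 fold changes were related weakly to features of the transcript, given as a description of genes measured in the same libraries. Spearman's rho was 0.28 with the number of exons, 0.12 with transcript length, -0.07 with GC content and -0.17 with CPM per kilobase in the controls. Over all tested genes matched to the annotation (16514), the values were -0.03, 0.02, -0.03 and -0.40. The control level enters both quantities of the last pair. The median number of exons was 4 in the members called lower and 5 in the others. The exons of 32 members overlap another gene, 27 of them on the opposite strand and 8 on the same strand. Of these 32 members 10 were called lower (median -0.24), and of the 44 without overlap 18 were (median -0.26).

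The proteins of the same ribosome whose symbols fall outside the rule gave mixed values. Of 7 tested, 2 were called lower and 1 higher, with a median of -0.29. Gadd45gip1, a large-subunit protein, had 69.0, 72.9 and 75.2 CPM in the controls and 50.4, 51.3 and 40.3 CPM in the knockdown libraries. It fell by 0.61 (SE 0.11, edgeR adjusted p = 0.00279). Aurkaip1, a small-subunit protein, had 124, 124 and 125 CPM against 87.9, 99.7 and 80.6 CPM and fell by 0.48 (SE 0.10, edgeR adjusted p = 0.00566). Both calls held whichever library was left out and with total-count scaling. Dap3, a GTP-binding protein of the small subunit, had 57.7, 62.7 and 66.8 CPM against 76.6, 76.3 and 90.8 CPM and rose by 0.38 (SE 0.11, edgeR adjusted p = 0.0237). No libraries overlapped, and its call was lost without control 1, control 2 or knockdown library 3.

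Of 24 genes for assembly of the mitochondrial ribosome and modification of its RNA, 5 were called lower and 1 higher, with a median of -0.11, which was 0.06 with total-count scaling. The share called lower, 20.8%, equals that of all genes averaging 10 CPM or more and compares with 12.6% of all genes tested. Ndufab1, the mitochondrial acyl carrier protein, had 234, 208 and 189.8 CPM against 163, 159.7 and 151 CPM and fell by 0.42 (edgeR adjusted p = 0.0104). Mterfd2, a partner of the methyltransferase of the ribosomal RNA, had 11.9, 12.9 and 11.9 CPM against 8.65, 8.30 and 7.89 CPM and fell by 0.56 (edgeR adjusted p = 0.014). Tfb1m, which methylates the small ribosomal RNA, had 14.0, 17.9 and 14.4 CPM against 22.5, 19.1 and 26.6 CPM and rose by 0.56 (edgeR adjusted p = 0.0199). The groups did not overlap in these 3 genes, and of the 3 only Ndufab1 kept its call whichever library was left out. Mettl17, a factor of small-subunit assembly, had 8.66, 6.49 and 5.47 CPM against 3.76, 3.79 and 4.60 CPM and fell by 0.76 (edgeR adjusted p = 0.0248). Trub2, a pseudouridine synthase, and Ddx28, an RNA helicase, fell by 0.40 and 0.47 (edgeR adjusted p = 0.0283 and 0.0328). Each of these 3 lost its call in at least 4 of the 6 fits without 1 library. With total-count scaling 0 of the 24 were called lower and 3 higher. Trub2 and Ddx28 were named after their values were seen.

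Among 15 mitochondrial translation factors, 3 were called lower and 0 higher, with a median of -0.18, and 0 were higher at an unadjusted p under 0.05 or in DESeq2 and limma-voom. The share called lower, 20%, was near the 20.8% of genes that averaged 10 CPM or more. Tufm, the elongation factor that brings aminoacyl-tRNA to the ribosome, had 54.4, 54.7 and 64.1 CPM against 39.5, 41.2 and 42.6 CPM and fell by 0.49 (SE 0.11, edgeR adjusted p = 0.00667), a call that held whichever library was left out. Mtif3, an initiation factor, fell by 0.43 (edgeR adjusted p = 0.0168), from 43.2, 37.4 and 43.5 CPM to 31.7, 32.2 and 28.5 CPM. Oxa1l, which inserts the products into the inner membrane, fell by 0.36 (edgeR adjusted p = 0.0292), from 49.0, 51.5 and 53.9 CPM to 37.8, 43.8 and 38.9 CPM. The libraries of neither gene overlapped, and both calls were lost in 4 of the 6 fits without 1 library. With total-count scaling only 1 of the 15, Tufm, was called lower.

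The list of mitochondrial aminoacyl-tRNA synthetases held 21 genes, among them the amidotransferase subunits Qrsl1 and Gatc, which are not synthetases. It had a median of 0.10, with 0 called lower and 2 called higher by edgeR. At an unadjusted p under 0.05 edgeR had 3 lower and 5 higher, DESeq2 called 2 lower and 3 higher, and limma-voom 0 and 2. Cars2, the cysteinyl-tRNA synthetase, had 8.72, 8.50 and 7.28 CPM against 11.6, 13.0 and 13.1 CPM and rose by 0.62 (SE 0.15, edgeR adjusted p = 0.0112), a call that held whichever library was left out. Qrsl1, a subunit of the amidotransferase that makes glutaminyl-tRNA, had 20.7, 15.1 and 16.9 CPM against 22.0, 23.6 and 26.3 CPM and rose by 0.45 (edgeR adjusted p = 0.0378), a call lost in 5 of the 6 such fits. None of the 3 tested genes of mitochondrial transcription passed the threshold (median 0.16).

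For comparison, the cytosolic ribosome and complex I of the respiratory chain were measured in the same libraries. Of 79 tested genes of cytosolic ribosomal proteins, 1 was called lower (Rpl28, -0.55) and 1 higher (Rps27l, 0.53), with a median of 0.04, whereas total-count scaling gave 0 lower and 14 higher. Of 36 Nduf subunits of complex I, 6 were called lower, with a median of -0.15, which was 0.02 with total-count scaling. The share called lower was 16.7%, below the 20.8% of genes that averaged 10 CPM or more. Beside these stood 28 of 76 mitochondrial ribosomal protein genes (36.8%). The sets share all libraries, and the differences between them were not tested.

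**Figure D4:**
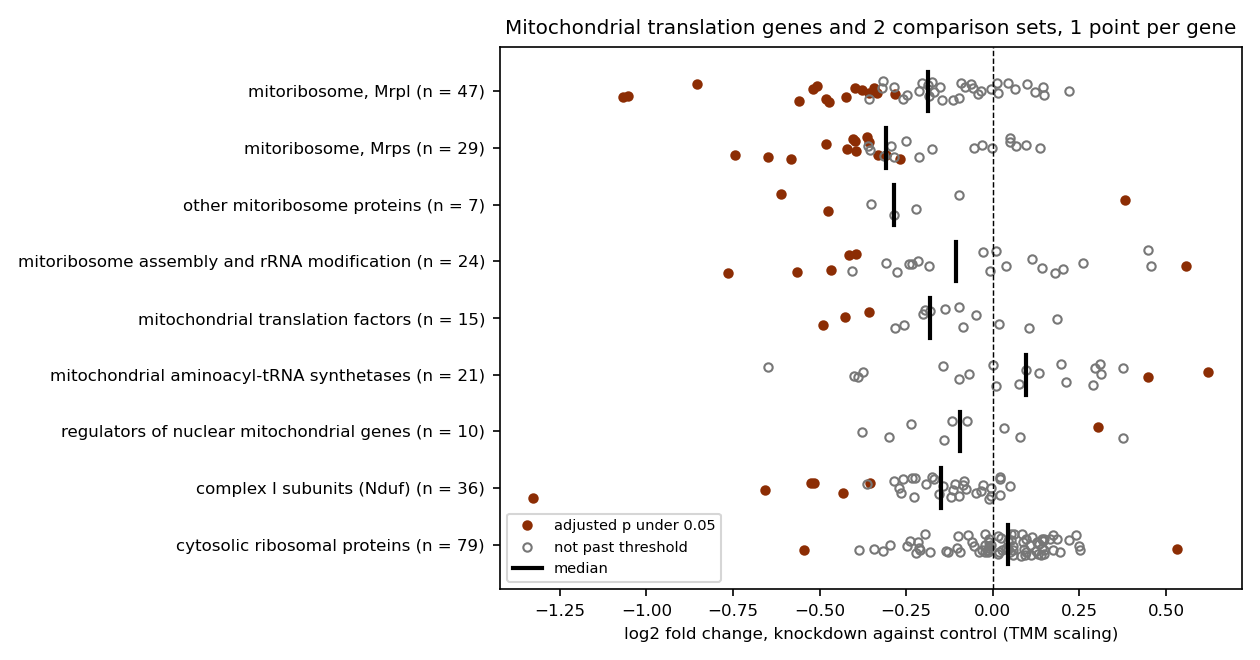
Each point is the log2 fold change of 1 gene, knockdown against control with TMM scaling, for the Mrpl and Mrps genes, 5 lists of other genes of mitochondrial translation and its regulation, and 2 comparison sets, with filled points for an adjusted p under 0.05 and a bar for the median. Medians run from -0.31 (Mrps) to 0.10 (the list of aminoacyl-tRNA synthetases, which includes Qrsl1 and Gatc). Total-count scaling turns the medians of the assembly genes, the regulators and complex I to 0.06, 0.07 and 0.02.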

How the data were processed

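RNA sequencing of 3 control and 3 Satb1 knockdown libraries was analysed from 1 table of whole-number counts per gene deposited by the authors. Per the submitters' processing notes, TopHat2 2.0.8 and mm10 were used. Not given in the sources used here are the counting tool, its use of strand, how it handled reads with several alignments, and the annotation. Titles gave the groups. They say siRNA, whereas the treatment text names hairpins. No library was a copy of another: chi-square per gene between replicates lay between 58.5 and 156, where sampling noise gives about 1.

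The test was edgeR 4.0.16 (R 4.3.3), quasi-likelihood F-test on the deposited counts, TMM scaling, filterByExpr at a minimum count of 10 and total of 15, two-sided, with Benjamini-Hochberg adjustment over 16766 genes and a threshold of 0.05. SEs came from the F statistic. The script was tested on simulated data. Counts of members lay between 1960 and 39828 per library. No member shared its counts with another row, but RefSeq lists 6 pseudogenes named for Mrpl23, Mrpl27, Mrpl48 and Mrps36, whose reads could be split.

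Values in every library are given for the 6 called members per subunit and direction with the most extreme log2 fold change and a mean of at least 2 CPM, the 3 most abundant per kilobase per subunit in controls, and at most 4 called genes per list by smallest p. Other members given with such values were chosen after their values were seen. Members, lists, sites and motifs were chosen with earlier results of these data known, and the cytosolic ribosome and complex I sets after the data were seen. Lengths, exons, overlaps and gene coordinates came from GENCODE M21 (GRCm38), which matched all 76 members, and promoter windows from RefSeq (GRCm38.p6). Alternatives were other scalings, DESeq2 1.42.0, limma-voom (limma 3.58.1), other filters, robust dispersion, a replicate block and leaving out each library. Same-numbered control and knockdown libraries had correlations of deviations of 0.06, 0.01 and 0.11, so the numbers were not taken as pairs.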

Additional observations from a re-analysis of the deposited data

How the results depend on the processing

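Relative log expression scaling, DESeq2, limma-voom, no low-count filter and a robust dispersion kept the counts of members called lower within 1.5 times and the medians within the spread between replicates. Total-count scaling gave 972 lower and 2770 higher genes in all, 4 Mrpl and 3 Mrps genes lower, 3 Mrpl genes higher, medians of -0.019 and -0.14 and, in values added after the data were seen, a summed level at 94.9% of control and 22 members lower and 13 higher without overlap. Upper-quartile scaling gave 6 Mrps genes lower and medians of -0.10 and -0.22, and a mean of at least 1 CPM gave an Mrpl median of -0.14. Without 1 library, counts ran from 1132 to 2054 lower and from 804 to 1356 higher for all genes, from 8 to 16 for Mrpl and from 3 to 10 for Mrps genes called lower. The cause of the dependence on scaling was not tested. With the replicate block, 20 Mrpl and 18 Mrps genes were called lower (medians -0.18 and -0.31) and 2789 genes lower and 1924 higher in all. Knockdown library 2 correlated best with control 1, so not every library correlated best with its own number.

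The alternatives for the pathway lists were added after the data were seen. With total counts, genes called lower and higher were 0 and 3 for assembly, 1 lower for translation factors, 6 higher for synthetases, 1 higher for transcription, 2 higher for regulators, 0 and 14 for cytosolic ribosomal proteins and 3 lower for complex I. Upper-quartile scaling gave 3 lower and 2 higher for assembly, 5 higher for synthetases and 6 higher for cytosolic ribosomal proteins. A mean of at least 1 CPM gave 2, 4 and 5 higher for these 3 sets. DESeq2 gave 2 higher for assembly, 2 lower for synthetases and 4 lower and 3 higher for cytosolic ribosomal proteins, limma-voom 3 lower and 2 higher, and relative log expression 2 higher for the last set. The block gave 4 lower for other mitoribosome proteins, 2 higher for assembly, 1 lower for synthetases, 11 lower and 5 higher for cytosolic ribosomal proteins and 14 lower for complex I. Without 1 library, genes called lower ran from 1 to 4 for assembly, 1 to 3 for translation factors, 0 to 2 for synthetases, 1 to 3 for cytosolic ribosomal proteins and 3 to 7 for complex I, and genes called higher from 0 to 1 for other mitoribosome proteins and for assembly, 1 to 2 for synthetases and 1 to 5 for cytosolic ribosomal proteins, and were 0 for regulators each time.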
